A study of Mus musculus with 7 samples.

Results

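Of the 20643 genes in the table, 151 carry a symbol that ends in -ps or in -ps and a number, the form given to a pseudogene named after a parent gene. They were taken by this symbol alone and set beside the gene whose symbol stands before -ps, which was in the table for 117 of them (77 parent genes) and not for the other 34. Total RNA was sequenced from prospermatogonia, the male fetal germ cells, of mouse fetuses at 15.5 dpc (15 dpc in a second label). The 7 libraries were 2 of WT fetuses (replicates 1 and 2), 2 of H19Ter/H19Ter (replicates 3 and 4) and 3 of H19Ter+neo/H19Ter+neo (replicates 5, 6 and 7), written H19Ter and H19Ter+neo from here on. Both mutant alleles hold a transcription terminator next to the H19/Igf2 imprinting control region, and H19Ter+neo also keeps the Pgkneo selection cassette, which Hprt-Cre removed in H19Ter. The alleles came from 129SI ES cells, as the methods name them, and were kept on 129S1. The homozygous fetuses also carried the Pou5f1-EGFP transgene TgOG2, kept on a B6;CBA background, for sorting EGFP+ cells, and up to 8 testes went into 1 digest. The sources used here give neither strain background nor litter for each library, so a p-value may measure only the spread between these samples, which may be technical. Whether strain differences move read pairs between near-identical copies and parents was not tested, and this limit applies to every level of a copy or parent given here.

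A processed pseudogene is a copy of a spliced mRNA that was reverse transcribed and inserted elsewhere in the genome, usually by the enzymes of LINE-1 elements. It lacks introns and brings no promoter, so its RNA, where there is any, starts from sequence near the insertion. Ribosomal protein genes, which are short and strongly transcribed in every cell and hence in the germ line, have left very many such copies. A short read from a recent copy can fit the parent equally well, and the counting mode of STAR that was used takes only read pairs that map to a single place.

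Ribosomal protein genes were the parents of 85 of the 151 pseudogenes, 44 of them copies of large-subunit genes (Rpl) and 41 of small-subunit genes (Rps). The other 32 with a parent in the table came from many families, among them 2 translation factors, 1 HMG protein and 1 mitochondrial respiration gene. The symbol does not always mark a processed copy. GENCODE vM21 types 110 of the 151 as processed pseudogenes, 29 as other pseudogenes, such as the vomeronasal receptor genes Vmn1r-ps58 and Vmn2r-ps87, and 12 as no pseudogene. A single exon was annotated for 119, and the 151 lay on 20 chromosomes, 14 on X. The annotation names 1556 genes in this form, so most of them were not in the table.

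Ribosomal copies were close to their parents in sequence. Of the 85, 84 aligned to a transcript of the parent, with a median identity of 98.6%, and 9 were identical over the alignment. The share of 50-base words of a copy that also occur in the parent, 50 bases being the read length, had a median of 49.9%. For 104 of the 117 pseudogenes with a parent in the table, the coding gene that shared most such words was that parent. Rpl18-ps1 did not align to Rpl18.

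The following 75-base windows, from GENCODE transcripts on GRCm38, show how like or unlike the copies on which the results turn are to the coding sequence of their parents. Capitals mark the bases that differ. Rpl10a-ps1 (chr1:64994530-64994604, minus strand) and Rps6-ps4 (chr2:75191748-75191822, minus strand) are shown once with their parents because the window is identical from the start codon on.
Rpl10a-ps1 and Rpl10a: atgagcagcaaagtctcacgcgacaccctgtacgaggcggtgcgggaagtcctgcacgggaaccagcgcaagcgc
Rps6-ps4 and Rps6: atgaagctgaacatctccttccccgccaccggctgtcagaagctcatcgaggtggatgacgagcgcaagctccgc
Rpl28-ps3 (chr4:126069974-126070048, minus strand) and Rpl31-ps21 (chr5:21119249-21119323, minus strand) were among the copies that were lower in H19Ter+neo, with 2 and 9 differences in the window.
Rpl28-ps3: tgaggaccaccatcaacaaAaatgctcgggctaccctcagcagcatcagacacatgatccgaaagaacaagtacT
Rpl28: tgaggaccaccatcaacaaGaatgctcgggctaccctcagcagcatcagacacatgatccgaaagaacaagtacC
Rpl31-ps21: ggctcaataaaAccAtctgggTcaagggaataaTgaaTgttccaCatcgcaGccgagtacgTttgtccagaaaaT
Rpl31: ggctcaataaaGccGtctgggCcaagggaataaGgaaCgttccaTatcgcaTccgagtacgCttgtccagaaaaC
Rpl3-ps1 (chrX:13202572-13202646, plus strand), Rps13-ps1 (chr8:87048074-87048148, plus strand) and Rplp0-ps1 (chr3:93278780-93278854, plus strand) were higher in each mutant than in WT, with 1, 2 and 8 differences.
Rpl3-ps1: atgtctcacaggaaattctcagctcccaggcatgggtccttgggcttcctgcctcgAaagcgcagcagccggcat
Rpl3: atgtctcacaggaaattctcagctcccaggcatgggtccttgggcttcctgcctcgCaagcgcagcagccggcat
Rps13-ps1: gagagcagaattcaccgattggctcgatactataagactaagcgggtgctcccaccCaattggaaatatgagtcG
Rps13: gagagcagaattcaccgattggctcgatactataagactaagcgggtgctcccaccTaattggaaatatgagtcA
Rplp0-ps1: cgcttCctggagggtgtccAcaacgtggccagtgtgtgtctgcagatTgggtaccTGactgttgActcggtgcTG
Rplp0: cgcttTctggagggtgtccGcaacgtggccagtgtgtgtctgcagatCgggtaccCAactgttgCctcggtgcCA
Rps18-ps6 (chr13:97760218-97760292, minus strand, 2 differences) separated single libraries, and Rps19-ps8 (chr5:108055806-108055880, minus strand, 6 differences) was 91.3% identical to its parent over the alignment.
Rps18-ps6: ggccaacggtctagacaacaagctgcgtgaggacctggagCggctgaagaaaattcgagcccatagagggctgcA
Rps18: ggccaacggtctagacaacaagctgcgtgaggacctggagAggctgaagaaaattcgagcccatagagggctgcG
Rps19-ps8: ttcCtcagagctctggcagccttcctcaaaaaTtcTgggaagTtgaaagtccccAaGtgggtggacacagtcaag
Rps19: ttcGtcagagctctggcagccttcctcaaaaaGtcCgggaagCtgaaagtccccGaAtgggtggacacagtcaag

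The libraries held 45.1 and 45.9 M read pairs counted to genes in WT, 51.2 and 37.5 M in H19Ter and 84.1, 86.3 and 87.3 M in H19Ter+neo, so depth moved with genotype. Between 3 and 9 of the pseudogenes had fewer than 10 read pairs in a library. Correlations of log2 values between libraries of 1 genotype were 0.989 to 0.993, and between genotypes 0.941 to 0.980. All 10 germ cell markers were in the table, with a summed level of 3727 to 4450 CPM (read pairs per M of the scaled library size). The summed level was 16.6 to 26.3 CPM for 7 of 7 Sertoli markers, 4.82 to 27.4 for 4 of 5 Leydig markers, 16.9 to 24.9 for 4 of 4 endothelial markers, 5.68 to 8.68 for 4 of 7 macrophage and leukocyte markers and 1.66 to 5.82 for 1 of 6 erythroid markers.

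Pseudogenes were weakly represented. Their mean log2 CPM over the 7 libraries had a median of 0.56 (range -2.65 to 7.02), against 2.83 over all genes and 7.90 over the parents of the ribosomal copies. Per kb of exon, the highest was Rps26-ps1 at 294 CPM per kb, with its parent Rps26 at 168 CPM per kb. The order was not the same in every library, as Rps26 was above its copy in H19Ter+neo replicates 5 and 6 (357 and 363 CPM per kb, against 314 and 198 for Rps26-ps1) and below it in the other 5. Rpl10a-ps1 followed at 55.3, Rps7-ps3 at 43.3, Rps18-ps6 at 42.6, Rpl3-ps1 at 38.8 and Rps13-ps1 at 38.0 CPM per kb, and Rps18-ps5, Ndufa12-ps, Rpl14-ps1 and Rps27a-ps3 were between 22.3 and 26.2. In WT, Rps26-ps1 was at 140 and 164 CPM, with 137 and 98.6 in H19Ter and 141, 88.9 and 156 in H19Ter+neo. H19Ter+neo overlapped the other groups, both H19Ter libraries lay below both WT libraries, and neither mutant passed the test against WT for this copy.

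Ribosomal pseudogenes were lower in H19Ter+neo than in WT while most of their parents were not. Of the 85 copies, 60 fell, 9 rose and 16 did not pass the test (limma on log2 CPM, Benjamini-Hochberg adjusted p under 0.05 over all genes), and their median log2 fold change was -1.66. Of all genes tested, 26.7% were called lower and 27.7% higher in this comparison, with a median of 0.01. Their 45 parents had a median log2 fold change of 0.18, and 14 rose and 6 fell. These parents encode proteins of the cytoplasmic ribosome, except that GENCODE types Rps4l as a transcribed processed pseudogene. Rps4l was among those that fell, at -0.46. All 3 H19Ter+neo libraries lay below both WT libraries for 66 of the 85 copies, against 35.2% of all genes. In such bulk libraries, fewer cells that hold an RNA and less of it per cell cannot be told apart.

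Rpl10a-ps1, a copy of the large-subunit gene Rpl10a whose annotated sequence is identical to the parent's, was at 53.9 and 57.3 CPM in WT, 57.5 and 48.4 in H19Ter and 13.6, 12.4 and 10.3 in H19Ter+neo. The 4 WT and H19Ter libraries were alike and the 3 H19Ter+neo libraries were far below them, without overlap. Its log2 fold change in H19Ter+neo against WT was -2.21 ± 0.12 (SE; limma adjusted p = 2.19e-06). Rpl10a itself was at 247 and 257 CPM in WT and at 314, 307 and 248 in H19Ter+neo, a log2 fold change of 0.19 with a limma adjusted p of 0.13. Every 50-base word of this copy also occurs in Rpl10a, so the split of read pairs between copy and parent is uncertain.

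Rpl28-ps3, whose parent encodes another large-subunit protein, fell further. It had 12.3 and 11.8 CPM in WT, 11.0 and 8.18 in H19Ter, and 1.05, 1.16 and 0.707 in H19Ter+neo. Only the H19Ter+neo libraries stood apart, at -3.62 ± 0.22 on the log2 scale (SE; limma adjusted p = 3.44e-06), while Rpl28 was at -0.13 (adjusted p = 0.363). A second copy, Rpl28-ps1, identical to Rpl28, had 5.63 and 6.40 CPM in WT, 6.22 and 3.95 in H19Ter and 0.748, 1.16 and 0.533 in H19Ter+neo. Both copies of this parent thus lay lower in every H19Ter+neo library than in any WT or H19Ter library.

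Rps27a-ps3 is a copy of Rps27a, which encodes a small-subunit protein fused to ubiquitin. Its levels were 17.2 and 15.7 CPM in WT, 16.4 and 14.4 in H19Ter and 4.23, 2.95 and 2.72 in H19Ter+neo. It fell by 2.33 on the log2 scale (limma adjusted p = 1.06e-05) while Rps27a rose by 0.52 (adjusted p = 0.00929, and 0.0874 without WT replicate 1). Copy and parent were therefore called in opposite directions. Rps6-ps4, the identical copy of Rps6 shown above, had 15.0 and 17.3 CPM in WT, 15.1 and 12.1 in H19Ter and 3.07, 3.12 and 3.07 in H19Ter+neo, with no overlap between H19Ter+neo and the rest.

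Of the 6 largest falls among pseudogenes with a mean log2 CPM of at least 0, the other 4 were Rpl10-ps3 (-3.64), Rps19-ps4 (-3.17), Rps2-ps10 (-3.16) and Rpl18-ps1 (-2.85), given as log2 fold changes in H19Ter+neo against WT, and their parents did not pass the test in it. Rpl10-ps3, typed protein coding by GENCODE, was identical to Rpl10 over the alignment, where the split of read pairs with the parent is uncertain. It had 4.27 and 4.34 CPM in WT, 3.91 and 2.73 in H19Ter and 0.294, 0.310 and 0.348 in H19Ter+neo. Rpl18-ps1, whose parent is Rpl18 by symbol only since the 2 did not align, fell likewise. It had 11.0 and 12.7 CPM in WT, 14.6 and 12.8 in H19Ter and 1.62, 1.65 and 1.56 in H19Ter+neo. In both, the H19Ter+neo libraries differed little among themselves and lay well apart from the rest. Each of the 6 falls was named only where the libraries compared did not overlap, so the separation itself was part of the choice. Rpl31-ps21 had the lowest log2 fold change of all 151, -4.81, from 53 and 43 read pairs in WT, 10 and 5 in H19Ter and 0, 1 and 1 in H19Ter+neo.

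**Figure D1:**
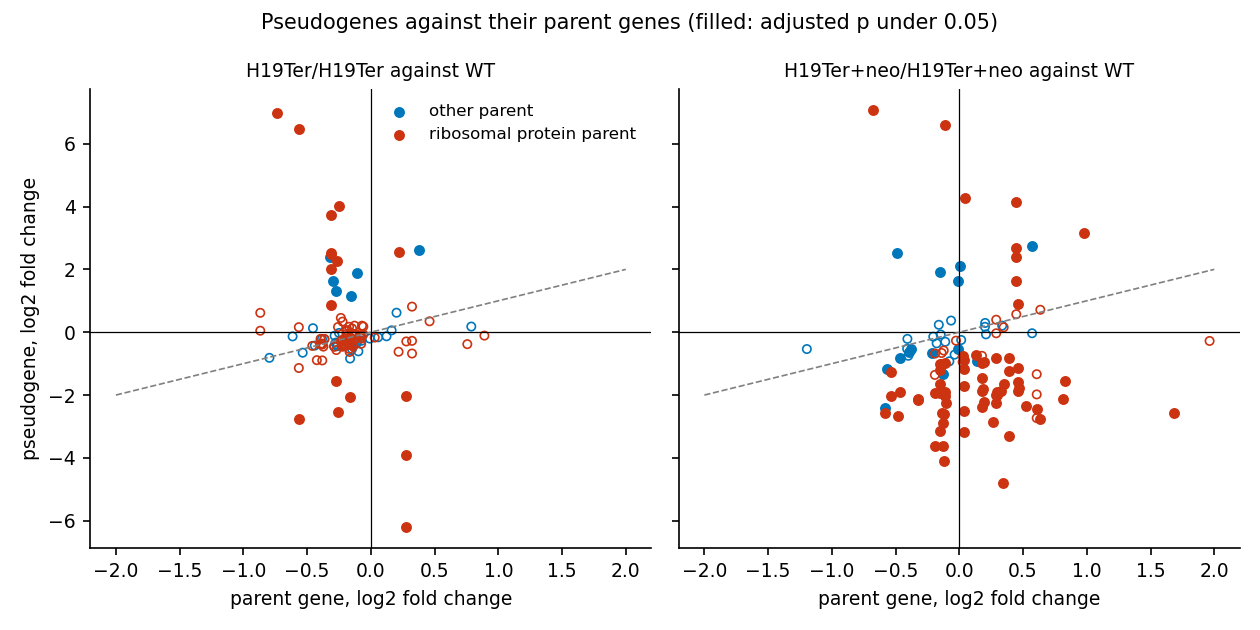
Log2 fold change of each of the 117 pseudogenes (y axis) against that of its parent gene (x axis), for H19Ter/H19Ter (left) and H19Ter+neo/H19Ter+neo (right) against WT. Each point is 1 pseudogene, red for a ribosomal protein parent and blue for another, filled where the pseudogene passed the test, and the dashed line marks equal change. On the right most red points lie between -1 and -4 with parents near 0, and on the left they gather around 0, with a few far above or below. Both panels use the same 2 WT libraries.

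Set beside its own parent, the copy had the lower log2 fold change in 73 of 85 ribosomal pairs in H19Ter+neo against WT, and the median difference was -1.78. In H19Ter against WT, which uses the same WT libraries, the count was 48 of 85 and the median difference -0.04. Over all 117 pairs in H19Ter+neo against WT, both passed in the same direction in 19, in opposite directions in 17, the pseudogene alone in 47, the parent alone in 13 and neither in 21. Across these pairs, which are no independent replicates, the rank correlation of the fold changes of pseudogene and parent was 0.03 in H19Ter+neo and 0.04 in H19Ter.

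The summed level of the 85 copies was 545 and 576 CPM in WT, 551 and 501 in H19Ter and 467, 344 and 461 in H19Ter+neo. The H19Ter+neo libraries were again the lowest, and the sum includes Rps26-ps1 and the copies that rose. As a share of the summed level of their parents this was 4.56% and 4.42%, then 4.55% and 4.60%, then 2.83%, 2.20% and 3.79%. Every H19Ter+neo library lay below every other library by this measure too. The parents summed to 11949 and 13036 CPM in WT, 12100 and 10902 in H19Ter and 16485, 15628 and 12173 in H19Ter+neo. The lower share in replicates 5 and 6 therefore also holds a higher level of the parents. The median log2 ratio of copy to parent was -6.94 and -7.04 in WT, -6.95 and -7.01 in H19Ter and -8.68, -8.59 and -8.42 in H19Ter+neo. Its difference from WT was -1.57 in H19Ter+neo and 0.01 in H19Ter.

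**Figure D2:**
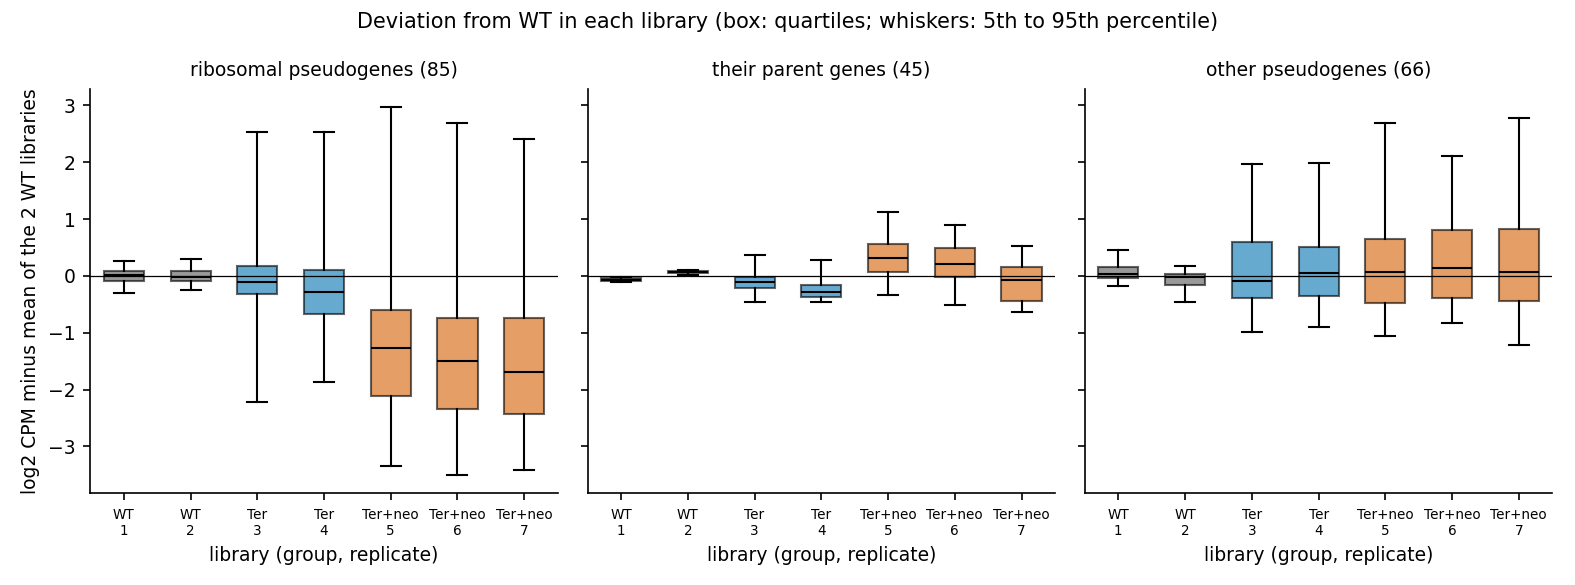
Deviation of each library (x axis) from the mean of the 2 WT libraries, in log2 CPM (y axis), over 85 ribosomal pseudogenes, their 45 parents and the other 66 pseudogenes. Boxes span the quartiles with the median as a line, and whiskers the 5th to 95th percentile. The box of ribosomal pseudogenes lies below 0 in replicates 5, 6 and 7 (H19Ter+neo), and those of the parents and of the other pseudogenes straddle or touch 0 in at least some of these libraries.

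The fall was seen across parents, positions and levels. The 60 copies came from 37 parents on 20 chromosomes, had a median identity of 98.2% (88.3% to 100%) and a median WT level of 2.10 CPM (0.549 to 55.6). In WT, their level per kb was 4.15% of that of the parent at the median. Of the 45 parents, 27 had all of their copies lower, but 23 of the 45 had only 1 copy and 22 had more. Rps13 and Rpsa had copies called in each direction. Of the 49 copies with a mean log2 CPM of at least 0, 34 were lower, as were 26 of the 36 below it.

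Likeness to the parent did not set the copies that fell apart in any simple order. Among copies identical to the parent 7 of 9 were lower (median log2 fold change -2.21), among those with 98% to under 100% identity 25 of 42 (-1.30), and among those under 98% 27 of 33 (-1.71). The 9 copies that rose had a median identity of 98.7%, and the 16 that did not pass the test 99.1%. These medians and counts are a description, since copies of 1 parent share sequence.

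**Figure D3:**
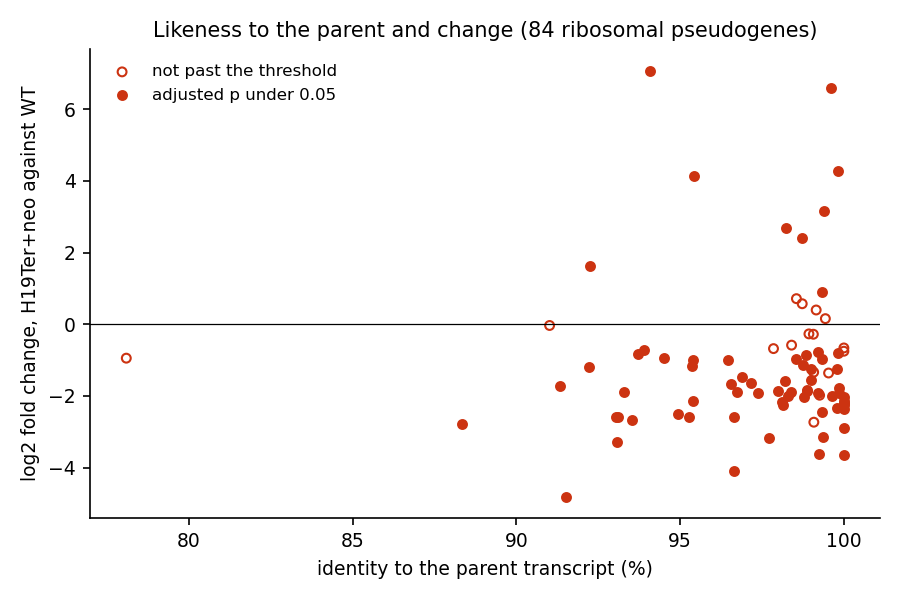
Identity of each of 84 ribosomal pseudogenes to its parent transcript (x axis, percent) against its log2 fold change in H19Ter+neo against WT (y axis). Filled points passed the test (adjusted p under 0.05) and open points did not. Points below -1 are found from about 88% to 100% identity, and the highest, at 94.1% and 99.6%, are Rplp0-ps1 and Rps13-ps1.

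A ribosomal copy inside another gene on the same strand can be read through from that gene's promoter, and 11 of the 85 lay so. Of these, 10 were lower and none higher in H19Ter+neo (median log2 fold change -0.97), against 50 lower and 9 higher of the other 74 (median -1.84). In each of the 11 the host gene had a higher log2 fold change than the copy. Rpl36a-ps2 fell by 2.26 within Ddah1, an enzyme gene of methylarginine breakdown, which was at 1.07. Rpl13-ps1 was at -1.20 within Usp32, a gene of the ubiquitin system, which was at -0.14.

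Pseudogenes of other parents and those with no parent in the table did not show this fall. Of the 32 copies of other parents, 5 rose and 9 fell in H19Ter+neo against WT (median log2 fold change -0.28), and their parents numbered 4 and 9 of 32. Of the 34 without a parent in the table, 12 rose and 3 fell (median 0.55). A parent was looked for by symbol alone, and Gpi-ps and Eif3s6-ps2 among these 34 share words with Gpi1 and Eif3e. Over all 151 pseudogenes, 26 rose and 72 fell (17.2% and 47.7%). By GENCODE type, 64 of 110 processed pseudogenes fell and 17 rose, while 2 of 29 other pseudogenes fell and 8 rose. Ribosomal copies made up 80 of the 110, and their other 5 were typed as no pseudogene. The counts by type therefore largely repeat those of the ribosomal copies. Among 1032 further processed pseudogenes in the table whose symbols lack -ps, 333 fell (32.3%) and 189 rose, with a median of -0.25. Whether these sets differ was not tested.

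In H19Ter against WT the pseudogenes as a set were near the background. Of the 151, 22 rose (14.6%, against 14.1% of all genes) and 10 fell (6.62%, against 11%), and their median log2 fold change was -0.13 (all genes -0.01). Of the 85 ribosomal copies, 10 rose and 7 fell, of the 32 with other parents 6 rose and none fell, and of the 34 without a parent 6 rose and 3 fell. The number called in either direction was 32 (25.1% of all genes were called). Without any of the 4 WT and H19Ter libraries, which leaves 1 library in that group, both this number and the number that fell were lower. Over all genes, the number called and the share that fell were lower in these fits too, so the drop was not particular to the pseudogenes.

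Within that set, a few copies were many times higher in each mutant than in WT, both set against the same 2 WT libraries. The largest rises were named only where the test was passed and the libraries of the 2 groups did not overlap. Their separation from WT was thus part of the choice. Rps13-ps1, a copy of the small-subunit gene Rps13, had 0.290 and 0.247 CPM in WT, 27.6 and 25.3 in H19Ter and 37.8, 20.2 and 31.6 in H19Ter+neo. The mutants overlapped with each other and were far from WT. Its log2 fold change was 6.46 ± 0.24 in H19Ter (SE; limma adjusted p = 1.26e-06) and 6.59 ± 0.22 in H19Ter+neo (adjusted p = 1.34e-07). Rps13 was at -0.57 and -0.11 in the same comparisons.

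Rpl3-ps1, on the X chromosome, copies Rpl3, which encodes a protein of the peptidyl transferase region of the large subunit. It was at 3.46 and 3.48 CPM in WT, 46.0 and 70.9 in H19Ter and 58.1, 76.6 and 70.0 in H19Ter+neo. WT again stood alone and the mutants overlapped, with log2 fold changes of 4.03 ± 0.18 and 4.27 ± 0.17 (SE; limma adjusted p = 1.53e-06 and 3.86e-07). Rpl3 itself was at -0.25 and 0.04 and did not pass the test in either.

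Rplp0-ps1, a copy of the gene for the stalk protein P0, had 0 and 2 read pairs in WT, 349 and 233 in H19Ter and 871, 583 and 360 in H19Ter+neo. WT held almost no read of it and every mutant library held many. Its fitted log2 fold changes, 6.99 and 7.08, depend on the prior count and are no bound. Rplp0 went the other way, at -0.74 and -0.68 (limma adjusted p = 0.000528 and 5.24e-05).

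Rps7-ps3, an X-linked copy of Rps7 typed as a transcribed processed pseudogene, had 5.34 and 4.92 CPM in WT, 23.4 and 26.0 in H19Ter and 44.4, 43.3 and 50.1 in H19Ter+neo. Here all 3 genotypes were apart. It was 0.89 higher on the log2 scale in H19Ter+neo than in H19Ter (limma adjusted p = 0.000237), and Rps7 was 1.24 higher in the same comparison (adjusted p = 0.000186). The log2 fold change against WT was 2.26 in H19Ter and 3.15 in H19Ter+neo.

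Large rises were not limited to ribosomal copies. Glo1-ps, a copy of the glyoxalase gene Glo1, had 0.514 and 0.427 CPM in WT, 2.93 and 3.10 in H19Ter and 3.72, 2.92 and 3.41 in H19Ter+neo. Its log2 fold changes were 2.60 and 2.75, and those of Glo1 were 0.38 and 0.57. Gpi-ps, which shared 38.1% of its words with the glycolytic gene Gpi1, was at 3.27 and 3.58, and Eif3s6-ps2, which shared 18.6% with the translation initiation factor gene Eif3e, at 3.62 and 3.70. The WT libraries were low, at log2 CPM -1.74 and -1.96 for Gpi-ps and -1.63 and -3.33 for Eif3s6-ps2. These fold changes therefore depend on the prior count. For Glo1-ps, Gpi-ps and Eif3s6-ps2 alike, the WT libraries lay below every mutant library. The rule for naming rises required this of Gpi-ps and Eif3s6-ps2, and of Glo1-ps in H19Ter.

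**Figure D4:**
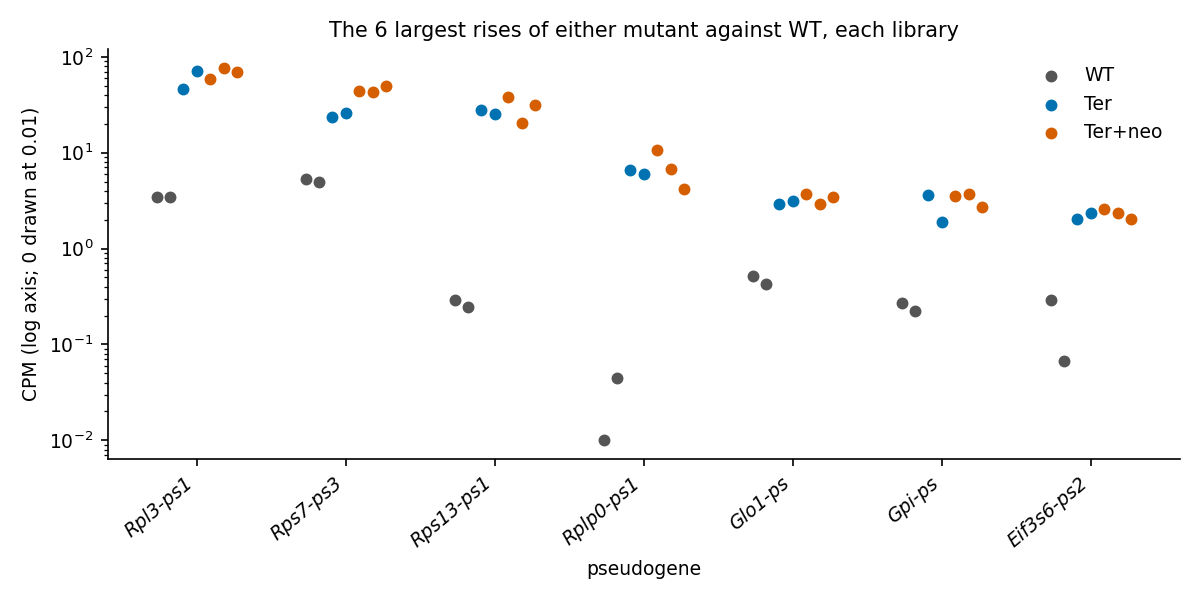
Level in each library (y axis, CPM on a log axis, a value of 0 drawn at 0.01) of the 7 pseudogenes with the 6 largest rises against WT in either mutant, by the rule for named genes. That rule takes only rises past the test without overlap between the libraries compared. Grey, blue and orange points are WT, H19Ter/H19Ter and H19Ter+neo/H19Ter+neo libraries. WT points lie at least a factor of several below the mutant points for each pseudogene, and the 2 mutants overlap or lie close except for Rps7-ps3.

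Copies of 1 parent did not always move together. All 5 copies of Rps15a, a small-subunit gene, were higher in H19Ter than in WT and 4 of 5 were higher in H19Ter+neo. Over all 5, log2 fold changes in H19Ter+neo ran from 0.57 to 4.15. The largest was that of Rps15a-ps2, at log2 CPM -3.70 and -4.20 in WT, so it depends on the prior count. Rps15a-ps7 had 1.32 and 1.26 CPM in WT, 7.61 and 7.30 in H19Ter and 7.81, 6.14 and 6.97 in H19Ter+neo, with WT below all mutant libraries. Rps15a was at -0.31 in H19Ter (limma adjusted p = 0.154) and 0.45 in H19Ter+neo (adjusted p = 0.0192). The rise of Rps15a-ps5 in H19Ter (0.85, adjusted p = 0.0434) was lost without any of the 4 WT and H19Ter libraries (0.0812 to 0.186) and without H19Ter+neo replicate 6 (0.063). That of Rps15a-ps3 in H19Ter was lost without H19Ter replicate 4 (0.055).

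The copies of Rps13 went in both directions. Beside the rise of Rps13-ps1, the other 3 were lower in H19Ter+neo, at -2.02 for Rps13-ps2, -1.92 for Rps13-ps5 and -0.97 for Rps13-ps4. Rps13-ps2, identical to Rps13 in its aligned part, had 3.89 and 4.38 CPM in WT, 0.845 and 0.387 in H19Ter and 1.08, 2.03 and 0.440 in H19Ter+neo. Both mutants were below WT and overlapped each other. Its fall in H19Ter+neo (limma adjusted p = 0.00783) was lost without WT replicate 2 (0.0617), and that in H19Ter (0.00785) without WT replicate 2 (0.0682) or H19Ter replicate 4 (0.0674).

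Copies of Rpsa, the gene of the laminin receptor protein of the small subunit, were also split. In H19Ter+neo against WT, 3 of 4 fell, from -1.87 to -1.12, and Rpsa-ps10 rose by 0.89 (limma adjusted p = 0.0197, lost without WT replicate 2 at 0.162 and without H19Ter+neo replicate 6 at 0.0572). The fall of Rpsa-ps2 (adjusted p = 0.0255) was lost without WT replicate 1 (0.202), H19Ter+neo replicate 6 (0.0597) or replicate 7 (0.0768). Families with 3 or more copies that were all lower were Rps19 (5 of 5, -3.17 to -0.87), Rpl23a (3 of 3, -3.30 to -0.83) and Rps2 (3 of 3, -3.16 to -1.0). Of the copies of Rpl19 3 of 5 were lower (-2.25 to 0.40), and of those of Rpl10 2 of 3 (-3.64 to -1.36). None of these 5 families had a copy called in H19Ter against WT.

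Of the 4 copies of Rps18, 3 separated single libraries. Rps18-ps6, on chromosome 13 and typed protein coding by GENCODE, had 52.4 and 52.5 CPM in WT, 0.545 and 0.851 in H19Ter, and 28.6, 0.505 and 32.0 in H19Ter+neo. Replicate 6 of H19Ter+neo was thus at the level of H19Ter, and replicates 5 and 7 nearer to WT. Rps18-ps5, elsewhere on chromosome 13, had 30.3 and 31.0 CPM in WT, 2.40 and 1.70 in H19Ter, and 20.3, 0.907 and 24.6 in H19Ter+neo, the same pattern by library. Rps18-ps4, a lincRNA gene that overlaps Rps18-ps6 on the other strand, had 0.692 and 0.764 CPM in WT, 0.131 and 0.181 in H19Ter and 0.405, 0.0804 and 0.521 in H19Ter+neo. The sources used here do not say whether reads were counted by strand, so reads of this overlapping pair cannot be told apart. Rps18-ps3, on chromosome 8, did not split in this way, with 10.05 and 9.88 CPM in WT, 8.17 and 8.07 in H19Ter and 1.94, 2.27 and 1.30 in H19Ter+neo.

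In H19Ter against WT, Rps18-ps6 was at -6.20 ± 1.49 (SE; limma adjusted p = 0.0148) and Rps18-ps5 at -3.90 ± 1.17 (adjusted p = 0.0357). Leaving out any of the 4 WT and H19Ter libraries ended the call for both, with adjusted p from 0.0604 to 0.0976 for Rps18-ps6 and from 0.104 to 0.166 for Rps18-ps5, as did voom, a fit of the recovered reads with precision weights (0.207 and 0.159). In H19Ter+neo neither passed the test (adjusted p = 0.111 and 0.14). Rps18 was at 250 and 284 CPM in WT, 337 and 310 in H19Ter and 460, 460 and 316 in H19Ter+neo, and its replicate 6 value did not stand apart.

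**Figure D5:**
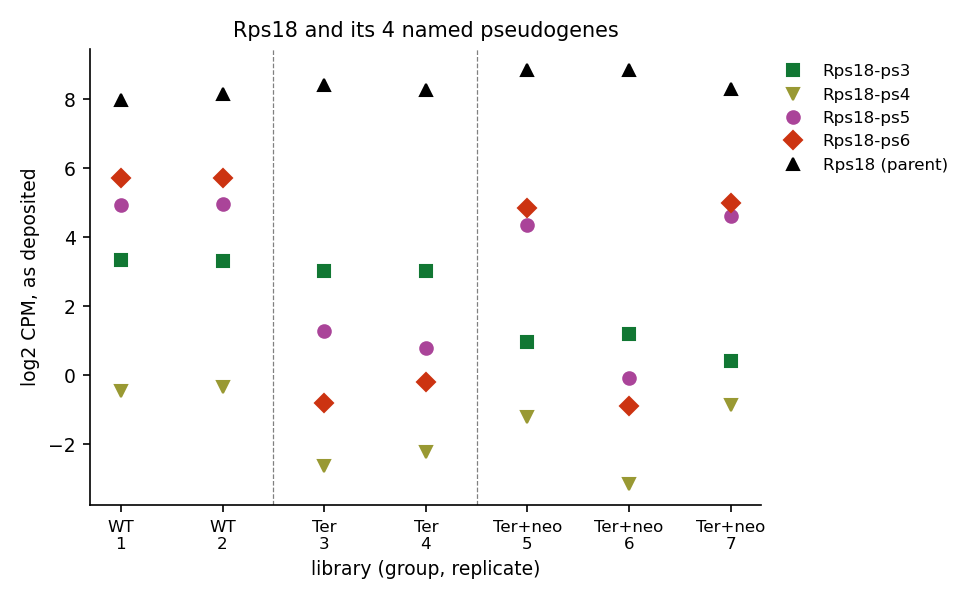
Log2 CPM as deposited (y axis) of Rps18 and its 4 named pseudogenes in each library (x axis, group and replicate). Rps18-ps6 and Rps18-ps5 are high in WT and in H19Ter+neo replicates 5 and 7 and low in both H19Ter libraries and H19Ter+neo replicate 6, while Rps18-ps3 is low in all 3 H19Ter+neo libraries and the parent lies near 8 to 9 throughout.

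Such spread within H19Ter+neo was found in other pseudogenes as well. The range over its 3 libraries was above 2 on the log2 scale for 7 of the 151 (4.64%) and for 79 of all 20643 genes (0.383%), whose levels are higher. Besides the 3 Rps18 copies these were Rpl34-ps1 (2.47), Rpl10-ps5 (2.25), Adh6-ps1 (2.22) and Rps13-ps2 (2.13). Rpl34-ps1 had 5.31 and 5.37 CPM in WT, 8.57 and 7.87 in H19Ter and 15.7, 2.81 and 4.76 in H19Ter+neo. Here replicate 5 was the high one, so the libraries that stood apart were not the same from copy to copy.

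H19Ter+neo against H19Ter compares the mutants directly and shares its H19Ter+neo libraries with the comparison against WT. Ribosomal copies were lower here too. Of the 85, 50 fell and 2, Rps7-ps3 and Rpsa-ps10, rose, with a median log2 fold change of -1.20, and 21 of their 45 parents rose and 1 fell (median 0.32). Of all genes, 15.2% were called lower and 12.5% higher. Of all 151 pseudogenes 56 fell and 10 rose, 66 in either direction (27.7% of all genes were called). Falls and rises were both fewer without either H19Ter replicate, which leaves 1 H19Ter library, and so they were over all genes. The number that rose was lower without any single library, as was the share over all genes. Without H19Ter+neo replicate 6 it was 6, where 9.65% of all genes rose.

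The rises in this comparison were mostly of pseudogenes without a parent in the table, 7 of 34, with 2 falls. Vmn2r-ps87, named as a vomeronasal receptor pseudogene, had 2.97 and 2.40 CPM in WT, 2.95 and 2.89 in H19Ter and 4.76, 5.21 and 6.34 in H19Ter+neo. Its log2 fold change against H19Ter was 0.88 (limma adjusted p = 0.00462), with H19Ter+neo above all other libraries. The rule for naming rises required no overlap with H19Ter. Vmn1r-ps58 was at 0.90 (adjusted p = 0.0319), H2bu1-ps, a histone pseudogene, at 0.68 (0.0325) and Mageb8-ps at 0.91 (0.0456). These 3 calls were each lost when single libraries were left out, among them H19Ter replicate 3, without which the adjusted p was 0.283, 0.151 and 0.326.

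A few pseudogenes with no parent in the table were lower in a mutant. Zfp862-ps, typed as a transcribed unitary pseudogene, had 47.5 and 49.3 CPM in WT, 34.7 and 34.4 in H19Ter and 32.7, 33.4 and 31.0 in H19Ter+neo. Its log2 fold change was -0.49 in H19Ter and -0.58 in H19Ter+neo (limma adjusted p = 0.00288 and 0.000116), small but larger than the spread within any group. Mageb8-ps, on X, had 3.04 and 2.34 CPM in WT, 0.564 and 1.01 in H19Ter and 1.69, 1.69 and 1.07 in H19Ter+neo, with WT above both mutants. Zfp862-ps and Mageb8-ps were named as falls in H19Ter, for which no overlap with WT was required.

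The level of a copy relative to its parent was also compared in single pairs. The log2 ratio of pseudogene to parent did not overlap between the 2 WT and the 5 mutant libraries in 37 of 117 pairs, 15 with the mutants above and 22 with the mutants below. By an exact two-sided permutation test, with 21 possible choices of the 2 WT libraries among 7, 17 of the 117 pairs had a p of 0.0476, the smallest this design allows, before any adjustment over the pairs. The most extreme of the 21 choices gives this p in any pair, so some of the 17 can come without a genotype difference. The 5 mutant libraries pool 2 genotypes whose median ribosomal ratios differed, and no share over all genes stands beside these counts. With every library thinned to 37.55 M read pairs the ribosomal copies were lower in H19Ter+neo against WT in 58 of 85 cases, and with a trend on GC content and length removed in 55 of 85. The part of depth, GC content and length in the fall was not tested beyond these counts.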

How the data were processed

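Total RNA (rRNA-depleted) of EGFP+ prospermatogonia was sequenced by the authors as 50 bp paired-end reads in 7 libraries, grouped by the genotype in the labels. The submitters' processing notes and the methods name Trim Galore 0.6.0, STAR 2.7.8 with gene counts on mm10, deepTools and edgeR. Per the values, the authors deposited log2 CPM with a mean prior count of 2 reads. Undoing the log2 and the prior gave whole read pairs for 100% of values (tolerance 0.001 of a read). Levels in CPM are these reads per M of the scaled library size, without the prior count.

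The log2 values were fitted as deposited with limma 3.58.1 (R 4.3.3), genotype as the only factor over all 7 libraries, with empirical Bayes moderation and a mean trend. All 20643 genes were tested and p-values adjusted by Benjamini-Hochberg, two-sided, at 0.05. Fold changes are on the log2(CPM + prior) scale, which understates those of low genes. The fit was tested on simulated counts. Types and positions came from GENCODE vM21 (GRCm38), which holds 20615 of the IDs, and identity to parents from BLAST 2.17.0 (e-value limit 1e-05). Python 3.11.15 and matplotlib 3.10.9 were used for figures.

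Pseudogenes, lists and tests were chosen with earlier results of these data known. The named genes are the 10 pseudogenes highest per kb of exon, the 6 largest rises and falls of each comparison past the threshold with a mean log2 CPM of at least 0 and no overlap, the 6 that departed most from their parent, and all copies of parents with 3 or more. Others, such as Rps6-ps4, Rpl31-ps21, Rpl34-ps1, Adh6-ps1 and copies inside host genes, were named after their values were seen. Alternatives were other prior counts, scalings, a level filter, fits of 2 groups, each library left out, and 3 chosen after seeing the data (voom, thinning, a GC and length trend).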

Additional observations from a re-analysis of the deposited data

How the results depend on the processing

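Direction was checked only for the pseudogenes named by the stated rule and their parents. No such fold change past the test reversed with other prior counts, a library left out, voom, thinning or the GC and length trend. The calls themselves were less stable. Among these checks of named values, 157 kept the direction but lost the call, 11 ratios to the parent moved by more than their spread, and 1456 were the same. They include fits that leave 1 library in a group. Direction was not checked with the other scalings, the level filter or the fits of 2 groups. In H19Ter the median log2 ratio of ribosomal copy to parent differed from WT by 0.01 as reported. That difference ran from -0.04 without WT replicate 2 to 0.06 without WT replicate 1. With only genes of a mean of at least 1 CPM tested, which left 99 of the 151, 46 pseudogenes fell in H19Ter+neo against WT in place of 72, and 38 ribosomal copies (of 53 tested) in place of 60. In H19Ter against WT that filter gave 5 falls in place of 10 and 3 ribosomal falls in place of 7, a fit of these 2 groups alone 19 and 11, and voom 4 ribosomal falls. Rises in H19Ter+neo against H19Ter were 6 with library totals as the only scaling (10 as reported). Pairs called in opposite directions in H19Ter against WT were 2 with library totals or after thinning and 1 with voom (4 as reported), and in H19Ter+neo against WT 26 with the GC and length trend removed (17). Pairs called in the same direction in H19Ter against WT were 1 with library totals and with voom (2), and in H19Ter+neo against H19Ter 11 with library totals and 3 with the filter, voom or the GC and length trend (6). The cause was not tested beyond the smaller number of genes or samples. Library totals moved the median of all genes in H19Ter against WT to 0.07.

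With single libraries left out, the ranges for H19Ter against WT were 18 to 38 called, 14 to 23 higher, 4 to 15 lower and 1 to 8 ribosomal lower, for H19Ter+neo against WT 77 to 100, 19 to 27, 58 to 75 and 52 to 64, and for H19Ter+neo against H19Ter 39 to 65, 3 to 9, 36 to 56 and 35 to 51. Pairs in opposite directions ranged from 1 to 13, 9 to 33 and 6 to 28, and in the same direction from 0 to 4, 6 to 22 and 1 to 9, in the same order. The median log2 fold change of ribosomal copies in H19Ter+neo against WT lay between -1.79 and -1.42 over the other settings.

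No paired analysis was possible because the groups share no replicate number. Count tests with edgeR or DESeq2 on the recovered reads were planned and not run, as the deposited unit is log2, and voom was run on those reads in their place. WT and H19Ter have 2 libraries each and many copies have few read pairs, which limits the precision of their values.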
